A study of Mus musculus with 4 samples.

Results

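Interferon-stimulated genes were followed in primary mouse embryonic fibroblasts, which are connective-tissue cells cultured from embryos and not a cell line. A list of 49 such genes was matched by symbol to GENCODE M21 identifiers, and all 49 had a value. Of these, 37 were kept because they reached 1 FPKM (fragments per kilobase of exon per 1e+06 fragments) in at least 1 of 4 libraries, out of 12817 genes that did so among 55573 identifiers. The groups were Dyrk2-KO (labelled as Dyrk2 knockout cells), WT (wild type), siDyrk2 (wild-type cells with an siRNA against Dyrk2) and siNeg (wild-type cells with a negative-control siRNA). Every group shared a 24 h treatment with SAG at 100 nM, which activates Hedgehog signalling through Smoothened, and cultures without SAG were not analysed here. Each group held 1 library, so no difference below has a replicate check or a test. The members and the other gene lists were chosen with earlier results of these data known. Their counts beside shares of all genes are therefore descriptions. The labels used here give no embryo, strain, embryonic stage, deleted exon or siRNA sequence.

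Interferons are secreted proteins that cells make after sensing foreign or misplaced nucleic acid. Type I interferons bind the receptor pair encoded by Ifnar1 and Ifnar2, and the receptor's kinases activate a transcription factor complex that contains Stat2 and Irf9. This complex binds a DNA element, the interferon-stimulated response element, in front of many genes whose products sense viral RNA, block its translation, degrade it or present antigen. Fibroblasts carry out this response themselves and keep many of these genes at a low level without infection.

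Dyrk2, the targeted gene, was at 0.57 FPKM in Dyrk2-KO against 6.59 in WT, and at 0.81 with siDyrk2 against 7.06 with siNeg. Of the Hedgehog target genes, Gli1 was at 0.24 FPKM in Dyrk2-KO against 28.81 in WT and at 2.25 with siDyrk2 against 30.17 with siNeg, and Ptch1 and Hhip were lower in the same 2 libraries. Depth estimated from the steps of the FPKM values was 20 to 23.9 M fragments (M, 1e+06) a library. The 9 fibroblast markers were measured in the libraries, with medians of 0.06 in the knockout and -0.31 in the siRNA comparison on the log2 scale, while 8 endothelial markers summed to 4.16 to 6.19 FPKM, and 6 epithelial markers to 1.29 to 1.75 FPKM. The Y-linked genes Ddx3y, Eif2s3y, Uty and Kdm5d summed to 14.85 FPKM in Dyrk2-KO and to at most 0.02 in the other libraries, so genotype and the sex of the cells cannot be told apart in that comparison.

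Interferon-stimulated genes were mostly higher in Dyrk2-KO than in WT, by small amounts. Of the 49 listed genes 43 were higher, against 42.5% of all 24334 genes above 0 in any library. Among the 37 kept genes 35 were higher, against 43.7% of the 12817 genes at 1 FPKM. Their median log2 ratio on FPKM + 1 was 0.34, against -0.02 for all genes, and it was 0.27 over all 49. At least 1.5-fold on this scale were 9 genes, Ifit1, Ifit3, Ifit3b, Isg15, Oasl2, Bst2, Ifitm1, Rtp4 and Slfn5, which is 24.3% of the kept genes against 2.58% of all genes. At least 2-fold were 3 of them, Ifit1, Ifit3 and Slfn5 (0.57% of all genes). Among the kept genes Cmpk2 and Ifi35 were lower (55.6% of all genes), and 0 were lower by 1.5-fold (4.04% of all genes).

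With siDyrk2 most of the genes were also higher than with siNeg, again by small amounts. Of the 49 listed genes 40 were higher, against 49.1% of all genes above 0. Of the 37 kept genes 32 were higher (54.3% of all genes), with a median of 0.26 against 0.02, and the median over all 49 was 0.19. At least 1.5-fold higher were 5 genes, Ifit1, Isg15, Oasl2, Rtp4 and Slfn5 (3.77% of all genes), and 0 reached 2-fold (0.749% of all genes). The 5 lower kept genes (45% of all genes) were Ifit3b, Irf1, Trim30a, Gbp2 and Cmpk2, and 0 were lower by 1.5-fold (2.73% of all genes).

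The controls differed as well. With siNeg 36 of the 49 listed genes were higher than in WT, against 42.6% of all genes above 0. Of the 37 kept genes 27 were higher (48.3% of all genes), with a median of 0.16 against -0.01. Isg15 was the 1 gene at least 1.5-fold higher (1.41% of all genes), and 0 reached 2-fold (0.367%). The 10 lower ones (51% of all genes) were Irf9, Irf1, Ifi27, Ifitm2, Trim25, Parp9, Gbp2, Cmpk2, Eif2ak2 and Adar, and 0 were lower by 1.5-fold (2.37%). This comparison shares the WT library with the knockout comparison and the siNeg library with the siRNA comparison. WT was the lowest of the 4 libraries for 26 of the 37 kept genes, and it was for 15.1% of all genes.

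Markers of macrophages and leukocytes were higher in the same comparisons. Of 22 markers 20 were measured, and 19 were higher in Dyrk2-KO (median 0.67), 17 with siDyrk2 (median 0.23) and 20 with siNeg against WT (median 0.32), beside 43.7%, 54.3% and 48.3% of all genes. Their summed level was 614.7 FPKM in Dyrk2-KO against 313.8 in WT, and 460.6 with siDyrk2 against 370.6 with siNeg. Lyz2 alone made 328.57 FPKM in Dyrk2-KO against 152.06 in WT, and 196.09 with siDyrk2 against 154.19 with siNeg. Estimated fragments summed over the markers without Lyz2 and scaled by depth were 1.79-fold higher in Dyrk2-KO (1.74 to 1.84), 1.22-fold with siDyrk2 (1.19 to 1.26) and 1.34-fold for siNeg against WT (1.30 to 1.38). None of the markers was at 0. Adgre1, the macrophage antigen F4/80, was at 11.82 FPKM in Dyrk2-KO against 6.32 in WT, and Ptprc (CD45), below the filter, at 0.70 against 0.45. Macrophages also express many interferon-stimulated genes, and in bulk RNA more cells of a type and more RNA per cell cannot be told apart. The part of these cells in the ratios of the members was not tested.

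In both groups of genes the summed level was lowest in WT and next lowest with siNeg, while Dyrk2-KO and siDyrk2 changed places. With 1 library a group this was not tested. Summed macrophage markers were highest in Dyrk2-KO, followed by siDyrk2, siNeg and WT. Among the kept members siDyrk2 was the highest library for 23 genes and Dyrk2-KO for 12, against 31.7% and 24.9% of all genes. Summed over all kept members, the level was 967.0 FPKM in Dyrk2-KO against 752.9 in WT, and 1080 with siDyrk2 against 833.6 with siNeg. Without Ifitm2 and Ifitm3, which held the highest levels, the sum was 322.3 FPKM in Dyrk2-KO against 235.1 in WT. It was 346.1 with siDyrk2 against 267.3 with siNeg.

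**Figure D1:**
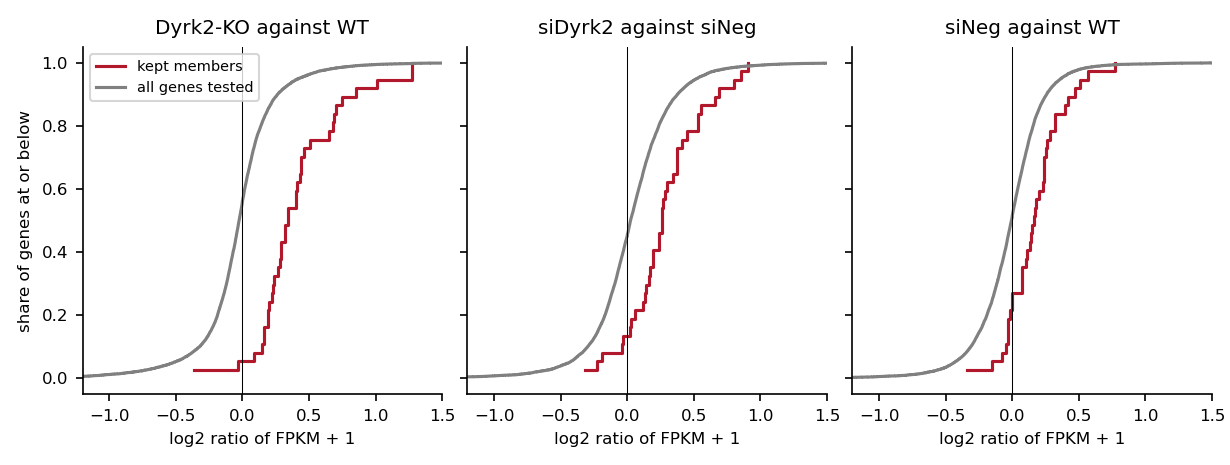
Cumulative share of genes (vertical axis) at or below each log2 ratio of FPKM + 1 (horizontal axis) in the 3 comparisons, for the 37 kept interferon-stimulated genes (red) and all 12817 genes tested (grey). The red curve lies to the right of the grey one in each panel, with medians of 0.34, 0.26 and 0.16 against -0.02, 0.02 and -0.01.

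Both Dyrk2 comparisons use separate libraries and can be set side by side. Higher in both were 31 of the 37 kept genes, as were 27.6% of all genes, and at least 1.5-fold higher in both were 5 of 37, as were 0.453% of all genes. For 28 of 37 the Dyrk2-KO and siDyrk2 values were both above the WT and siNeg values, as for 16.3% of all genes. Across the 37 genes Pearson's r between the knockout and the siRNA ratios was 0.46 and Spearman's rho 0.30, and across all genes they were 0.24 and 0.22. These are descriptions across genes, which are not independent replicates.

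**Figure D2:**
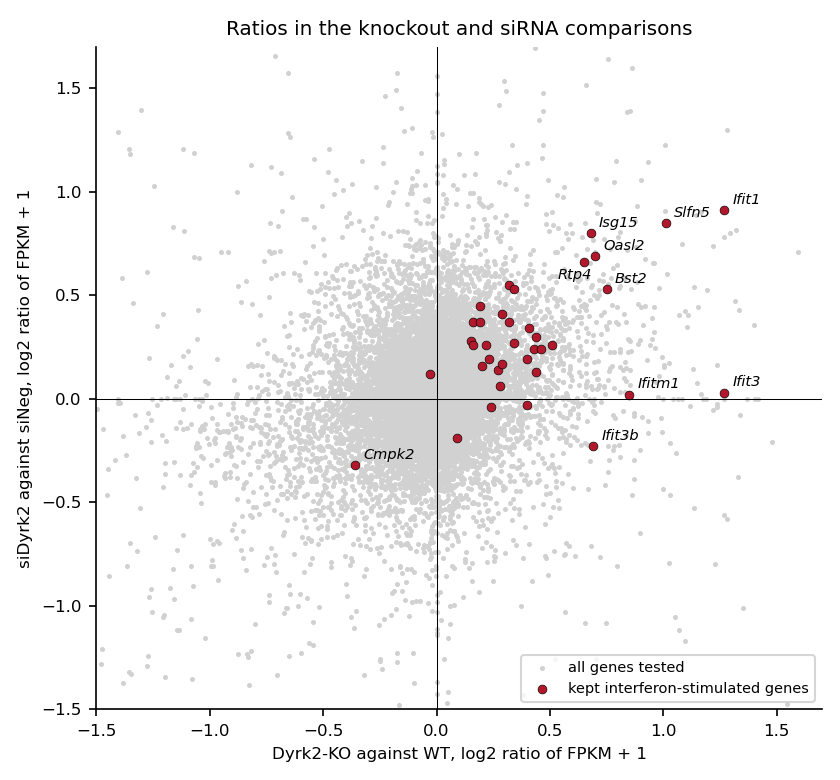
Log2 ratio of FPKM + 1 in Dyrk2-KO against WT (horizontal axis) and in siDyrk2 against siNeg (vertical axis), 1 point per gene, for the 37 kept interferon-stimulated genes (red) over all genes tested (grey; genes beyond the axes are not drawn). Ifit1, Slfn5, Isg15, Oasl2, Rtp4 and Bst2 lie up and right, while Ifit3, Ifitm1 and Ifit3b lie to the right with siRNA ratios of 0.03, 0.02 and -0.23.

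The filter itself touched a few genes. Inside it by the least were Usp18, whose highest value was 1.34 FPKM, and Dhx58, at 1.35. Outside it by the least were Isg20, at 0.98, and Oas1a, at 0.62. Of the 37 kept genes 30 reached 1 FPKM in every library. The other 7 were Oasl2, Rtp4, Trim30a and Parp14, which missed it in WT, Usp18 and Dhx58, which reached it in Dyrk2-KO and siDyrk2, and Cmpk2, which reached it in WT and siNeg. Whether these 7 were kept depended on the libraries in which they were higher.

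**Figure D3:**
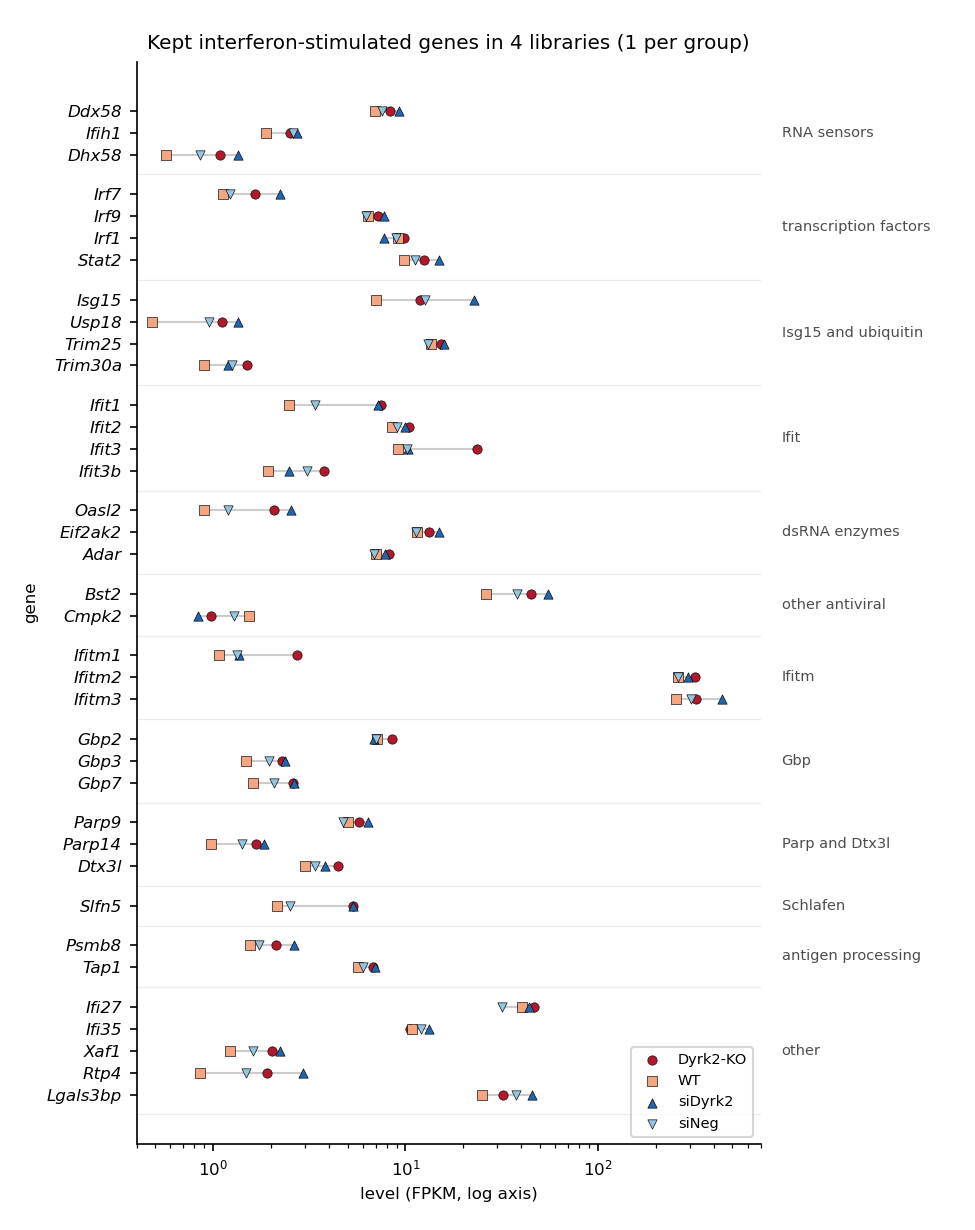
Level of each kept gene in FPKM (horizontal axis, logarithmic) in the 4 libraries, 1 symbol per library, with genes grouped by role (vertical axis) and a grey line from the lowest to the highest library. The WT square is the leftmost symbol for 26 of the 37 genes, and Isg15, Ifit1, Ifit3, Slfn5 and Rtp4 have wide lines.

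Interferons themselves were nearly absent. Of 21 interferon genes, Ifnb1 and the Ifna genes among them, 0 reached 1 FPKM and 19 were at 0 in every library. The remaining 2, Ifnk and Ifnz, gave between 1 and 5 estimated fragments a library in sum, with a highest value of 0.17 FPKM. A count of 0 allows up to 3 fragments. For the shortest of the genes at 0 (561 bases) that is 0.223 to 0.268 FPKM in the 4 libraries, and less for longer genes. Expression below this limit cannot be told from none.

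Receptor and kinase genes were present at similar levels. Of 15 genes of receptors, kinases and inhibitors 14 were measured. In Dyrk2-KO 7 were higher and 7 lower, with a median of 0.01. With siDyrk2 6 were higher and 8 lower, with a median of -0.04. Of all genes 43.7% and 54.3% were higher in these comparisons. Jak1, a kinase of both receptor types, was at 37.42 FPKM in Dyrk2-KO against 36.75 in WT, and at 39.63 with siDyrk2 against 40.05 with siNeg. Ifnar1 was at 18.46 FPKM in Dyrk2-KO against 18.74 in WT, and at 17.30 with siDyrk2 against 18.80 with siNeg. The interferon-gamma receptor genes were slightly higher, with log2 ratios of 0.21 and 0.17 for Ifngr1 and 0.17 and 0.26 for Ifngr2 in the knockout and siRNA comparisons. Irf2, a repressor of interferon-responsive genes, had the highest knockout ratio of the list, 0.26.

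Socs1, which encodes a feedback inhibitor of JAK kinases that interferons induce, went against the members. It was at 2.34 FPKM in Dyrk2-KO against 5.04 in WT, a 2.15-fold lower value (95% counting interval 1.77 to 2.63). With siDyrk2 it was at 2.26 FPKM against 4.56 with siNeg, a 2.02-fold lower value (1.64 to 2.5). The WT and siNeg values thus lay close together and above both others. Ptpn2, a phosphatase that acts on the same pathway, was the next lowest in the knockout, at -0.23, and at -0.07 with siDyrk2. Counting intervals here and below are exact binomial ones on estimated fragments, of the ratio of FPKM without a pseudocount, and cover counting error only.

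Sensors of viral RNA came next in the pathway. Ddx58 (RIG-I), Ifih1 (MDA5) and Dhx58 (LGP2) detect double-stranded RNA in the cytoplasm, and all 3 were higher in Dyrk2-KO, with log2 ratios of 0.22 to 0.41. With siDyrk2 they were at 0.06 to 0.34, and with siNeg against WT at 0.11 to 0.32. Dhx58 set the top of both Dyrk2 ranges and was kept only through Dyrk2-KO (1.09 FPKM) and siDyrk2 (1.35 FPKM). Zbp1, a sensor of Z-form nucleic acid, was not kept; it held 10 estimated fragments in Dyrk2-KO against 8 in WT, and 20 with siDyrk2 against 3 with siNeg. A further list held genes of Tlr receptors, adaptors, kinases and Irf transcription factors that pass the signal on to interferon genes. Its medians were 0.09 in Dyrk2-KO and 0.08 with siDyrk2. The medians of all genes were -0.02 and 0.02. Of the 16 genes of this list 13 were measured. In Dyrk2-KO 10 were higher and with siDyrk2 9, beside 43.7% and 54.3% of all genes. The highest in the knockout were the transcription factor Irf5 (0.52) and the receptor Tlr7 (0.49). Adaptor and kinase genes reached at most 0.17 there. The lowest were Tmem173, which encodes the adaptor STING (-0.37), and Traf6 (-0.10).

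Transcription factors of the response were all kept. Stat2 and Irf9 form part of the complex that type I interferon activates, Irf7 amplifies interferon production and Irf1 acts downstream of interferon-gamma. All 4 were higher in Dyrk2-KO, by 0.09 to 0.32, and 3 of 4 with siDyrk2, with Irf7 highest at 0.55 and Irf1 lowest at -0.19. With siNeg against WT they lay between -0.03 and 0.18.

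Isg15 encodes a ubiquitin-like protein that is joined to other proteins during the response. Its gene (ENSMUSG00000035692) lies on chromosome 4 at 156199424 to 156200818 on GRCm38. Its level was 11.84 FPKM in Dyrk2-KO against 7.02 in WT, and 22.79 with siDyrk2 against 12.67 with siNeg. The siDyrk2 library stood apart as the highest, WT was the lowest, and siNeg was above Dyrk2-KO. The ratio was 1.69-fold in the knockout comparison (1.33 to 2.15), 1.80-fold in the siRNA comparison (1.5 to 2.17) and also 1.80-fold between siNeg and WT (1.42 to 2.30). Set against siNeg in place of WT, Dyrk2-KO had a log2 ratio of -0.09 for this gene.

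Other genes of this group act on Isg15 or through ubiquitin. Usp18 removes Isg15 from proteins and restrains the receptor, Trim25 is a ubiquitin ligase that acts on RIG-I, and Trim30a is an interferon-induced TRIM protein. Usp18 was at 1.11 FPKM in Dyrk2-KO against 0.48 in WT, and at 1.34 with siDyrk2 against 0.95 with siNeg. As ratios of FPKM this was 2.31-fold in the knockout comparison (1.51 to 3.66), 1.41-fold in the siRNA comparison (0.980 to 2.03) and 1.98-fold for siNeg against WT (1.26 to 3.18), while on FPKM + 1 its log2 ratios were 0.51, 0.26 and 0.40. All of these genes were higher in Dyrk2-KO, and on FPKM + 1 the group with Isg15 spanned log2 ratios of 0.16 to 0.68. With siDyrk2 the group spanned -0.03 for Trim30a to 0.80 for Isg15. Trim25 was among the most abundant kept genes, at 15.25 FPKM in Dyrk2-KO against 13.53 in WT, and at 15.85 with siDyrk2 against 13.05 with siNeg.

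The Ifit genes encode proteins that bind viral RNA and block its translation, and they lie together on chromosome 19. Ifit1 (ENSMUSG00000034459; 34640871 to 34650009) was at 7.42 FPKM in Dyrk2-KO against 2.49 in WT, and at 7.21 with siDyrk2 against 3.37 with siNeg. Both control libraries were thus low and both Dyrk2-lowered libraries high. The ratio was 2.98-fold in the knockout comparison (2.48 to 3.60), 2.14-fold in the siRNA comparison (1.79 to 2.56) and 1.35-fold for siNeg against WT (1.09 to 1.69).

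Ifit3 (ENSMUSG00000074896; 34583531 to 34588731) had another pattern. It was at 23.50 FPKM in Dyrk2-KO against 9.13 in WT, and at 10.36 with siDyrk2 against 10.13 with siNeg. The Dyrk2-KO library alone was high, and the other 3 lay close together. The ratio was 2.57-fold in the knockout (2.28 to 2.91) and 1.02-fold with siDyrk2 (0.883 to 1.18).

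Ifit3b (ENSMUSG00000062488; 34607970 to 34613401) is a near copy of Ifit3, and 51.2% of the 50-base words of the longest Ifit3 transcript also occur in Ifit3b transcripts. How the authors' counting divided such fragments is not given in the sources used here. Ifit3b was at 3.75 FPKM in Dyrk2-KO against 1.94 in WT, and at 2.47 with siDyrk2 against 3.08 with siNeg. Summed over both copies, fragments were 2.45-fold higher in Dyrk2-KO (2.20 to 2.73) and at 0.966-fold with siDyrk2 (0.850 to 1.10), as for Ifit3 alone. Ifit2 had log2 ratios of 0.27 and 0.14 in the knockout and siRNA comparisons.

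Promoters are shown for the leading genes because the response element through which interferon acts lies there in many genes of this kind. They are the 250 bases before the RefSeq start on GRCm38.p6, written 5′ to 3′ on the gene's strand, for the 3 genes of the sequence table with the highest mean of both log2 ratios and for the pair Ifit3 and Ifit3b. Capitals mark each match to GAAA, any 2 bases and GAAA again, or on the other strand TTTC, any 2 bases and TTTC again, a core form of the response element. The regions are chr19:34640639-34640888 (plus strand) for Ifit1, chr11:82951852-82952101 (plus) for Slfn5, chr4:156200819-156201068 (minus) for Isg15, chr19:34583279-34583528 (plus) for Ifit3 and chr19:34607707-34607956 (plus) for Ifit3b.
Ifit1: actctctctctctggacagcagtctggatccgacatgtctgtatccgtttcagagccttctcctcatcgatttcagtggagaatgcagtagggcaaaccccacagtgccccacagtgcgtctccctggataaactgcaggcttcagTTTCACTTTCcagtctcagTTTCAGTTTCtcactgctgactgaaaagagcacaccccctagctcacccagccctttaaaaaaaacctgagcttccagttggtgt
Slfn5: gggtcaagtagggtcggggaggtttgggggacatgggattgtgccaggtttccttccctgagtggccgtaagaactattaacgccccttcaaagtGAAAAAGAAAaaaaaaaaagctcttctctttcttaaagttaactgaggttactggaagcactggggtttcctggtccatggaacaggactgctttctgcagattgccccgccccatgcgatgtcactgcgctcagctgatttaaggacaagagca
Isg15: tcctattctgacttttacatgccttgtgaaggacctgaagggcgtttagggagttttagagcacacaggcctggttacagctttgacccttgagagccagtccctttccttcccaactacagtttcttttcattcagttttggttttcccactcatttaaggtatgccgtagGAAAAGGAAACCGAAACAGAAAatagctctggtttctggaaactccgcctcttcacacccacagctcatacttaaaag
Ifit3: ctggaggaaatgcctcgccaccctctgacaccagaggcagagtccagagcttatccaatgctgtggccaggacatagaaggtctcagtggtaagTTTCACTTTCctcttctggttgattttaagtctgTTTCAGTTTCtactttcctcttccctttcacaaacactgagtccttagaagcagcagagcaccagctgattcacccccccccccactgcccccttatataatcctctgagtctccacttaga
Ifit3b: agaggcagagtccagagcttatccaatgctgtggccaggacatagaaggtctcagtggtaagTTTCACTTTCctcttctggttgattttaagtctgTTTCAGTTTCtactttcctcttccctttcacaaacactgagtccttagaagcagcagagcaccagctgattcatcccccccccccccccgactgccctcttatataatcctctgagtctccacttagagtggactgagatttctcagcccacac

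Ifit1 held 2 matches, which began 104 and 85 bases before the start. Isg15 held 3 overlapping ones, the first 78 bases before it, which read as 1 run of capitals. In Ifit3 and Ifit3b the marked bases were the same and lay in the same order, and they began 156 and 122 bases before the start in Ifit3 and 188 and 154 in Ifit3b. The single match of Slfn5, 155 bases before the start, opens a run of A, and GENCODE places the start of that gene further upstream, at 82951349.

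Of the 37 kept genes 31 were in the promoter table, and 12 of them held a match in some promoter, or 38.7%, against 3.46% of the 27025 genes of the table and 2.98% of its 32851 promoters. The 12 were Bst2, Gbp2, Gbp3, Gbp7, Ifit1, Ifit3, Ifit3b, Ifitm2, Isg15, Slfn5, Stat2 and Trim30a. In the knockout comparison they had a median log2 ratio of 0.57 (0.24 to 1.27), and the 19 without a match 0.27 (-0.36 to 0.85). In the siRNA comparison the medians were 0.21 with and 0.26 without a match, and for siNeg against WT, which shares the WT library with the knockout comparison, they were 0.24 and 0.10. The letters TTC, any 3 bases and GAA, the core of the element used by interferon-gamma and the same on both strands, were found for 6 of the 31 genes, or 19.4%, against 8.13% of the genes of the table. They were searched separately, and a match is a description of the letters, not a bound site. Of 48 member promoters 43 had bases after the start that are also in a transcript of the gene, as a check of the strand.

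Enzymes that act on double-stranded RNA followed. Oasl2, an oligoadenylate synthetase-like protein (ENSMUSG00000029561, chromosome 5 at 114896936 to 114912234), was at 2.08 FPKM in Dyrk2-KO against 0.90 in WT, and at 2.54 with siDyrk2 against 1.19 with siNeg. Both Dyrk2-lowered libraries were above both controls. The ratio was 2.31-fold (1.88 to 2.86) and 2.13-fold (1.76 to 2.59), and 1.32-fold for siNeg against WT (1.05 to 1.69). Eif2ak2 (PKR, which stops translation) and Adar (which edits adenosines in RNA) were within 0.16 to 0.37 in both comparisons. Of the 7 genes of this group, 4 synthetases, Oas1a, Oas2, Oas3 and Oasl1, were not kept.

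Of 6 other antiviral effectors, Bst2 and Cmpk2 were kept. Bst2 encodes tetherin, which holds budding virus particles on the cell (ENSMUSG00000046718, chromosome 8 at 71534255 to 71537456). It was at 44.91 FPKM in Dyrk2-KO against 26.34 in WT, and at 55.13 with siDyrk2 against 37.97 with siNeg. WT was the lowest and siDyrk2 the highest. The ratio was 1.71-fold in the knockout comparison (1.53 to 1.9), 1.45-fold in the siRNA comparison (1.32 to 1.6) and 1.44-fold for siNeg against WT (1.29 to 1.61). Cmpk2, a mitochondrial nucleotide kinase, was lower in both Dyrk2 comparisons, with log2 ratios of -0.36 and -0.32 and with 0.98 FPKM in Dyrk2-KO against 1.54 in WT and 0.84 with siDyrk2 against 1.29 with siNeg. Its neighbour on chromosome 12, Rsad2 (viperin), was not kept, and neither were Mx1, Mx2 and Isg20. Isg20 reached 0.98 FPKM with siDyrk2, above Cmpk2 in that library.

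The Ifitm genes, whose membrane proteins hinder the entry of viruses, held the highest levels of the list. Ifitm3 was at 324.54 FPKM in Dyrk2-KO against 256.07 in WT, and at 439.28 with siDyrk2 against 304.59 with siNeg. Its ratio was 1.27-fold in the knockout comparison (1.22 to 1.32), 1.44-fold in the siRNA comparison (1.39 to 1.5) and 1.19-fold for siNeg against WT (1.14 to 1.24). Ifitm2 was at 320.23 FPKM in Dyrk2-KO against 261.81 in WT, and at 294.65 with siDyrk2 against 261.72 with siNeg.

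Ifitm1 was far lower in level. It stood at 2.72 FPKM in Dyrk2-KO against 1.07 in WT, and at 1.36 with siDyrk2 against 1.33 with siNeg. Dyrk2-KO alone was high, as for Ifit3, on 65 estimated fragments against 28 in WT, and the ratio was 2.54-fold (1.61 to 4.11). Of the 50-base words of Ifitm2, 48.5% occur in transcripts of other genes, mainly of Gm45717, which was at 0 in every library.

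Guanylate-binding protein genes and the Parp and Dtx3l genes differed by small amounts. Gbp2, Gbp3 and Gbp7 encode GTPases that attack microbes inside cells, and they were at 0.24 to 0.46 in the knockout and at -0.04 to 0.24 with siDyrk2. Parp9 and Dtx3l encode partners in a ubiquitin ligase complex, and Parp14 is another member of that enzyme family. They were at 0.16 to 0.44 in the knockout and at 0.13 to 0.37 with siDyrk2. None of these 6 genes reached 1.5-fold in either comparison on FPKM + 1. As ratios of FPKM in the knockout comparison, Parp14 was at 1.7-fold (1.44 to 2.03), Gbp7 at 1.61-fold (1.35 to 1.92) and Gbp3 at 1.54-fold (1.20 to 1.97).

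Slfn5, a Schlafen family gene (ENSMUSG00000054404, chromosome 11 at 82951349 to 82964840), had the highest mean of both log2 ratios after Ifit1, 0.93 against 1.09. It was at 5.34 FPKM in Dyrk2-KO against 2.15 in WT, and at 5.34 with siDyrk2 against 2.52 with siNeg. The controls lay close together and both other libraries were equal. The ratio was 2.48-fold (2.18 to 2.84) in the knockout and 2.12-fold (1.86 to 2.43) with siDyrk2, and 1.17-fold for siNeg against WT (1.0 to 1.37). Slfn2 was not kept.

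Antigen processing genes were higher by little. Psmb8 encodes a catalytic subunit of the immunoproteasome and Tap1 a peptide transporter, and they were at 0.29 and 0.23 in the knockout and at 0.41 and 0.19 with siDyrk2. Psmb9, another such subunit, was not kept, at 0.50 FPKM in Dyrk2-KO against 0.47 in WT. The 4 constitutive proteasome genes Psmb5, Psmb6, Psmb7 and Psme3 were all lower in Dyrk2-KO (55.6% of all genes), with a median of -0.13. With siDyrk2 2 of 4 were higher (54.3% of all genes).

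MHC class I and other presentation genes, which are no members, had unlike medians in the 2 comparisons. Of 14 listed 12 were measured, and 10 were higher in Dyrk2-KO with a median of 0.36, led by H2-D1 and H2-K1, class I heavy chains. With siDyrk2 5 were higher and the median was -0.04. Of all genes 43.7% and 54.3% were higher in these comparisons. H2-D1 was at 61.49 FPKM in Dyrk2-KO against 35.95 in WT, and at 44.04 with siDyrk2 against 41.32 with siNeg. The lowest knockout ratios were those of Psme2 (-0.01) and Psmb10 (-0.00), and H2 genes resemble each other, so fragments may have been divided among them. The difference between both comparisons was not tested.

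The remaining members had varied roles. Rtp4, induced by interferon and named as a receptor transporter, was at 1.91 FPKM in Dyrk2-KO against 0.86 in WT, and at 2.93 with siDyrk2 against 1.48 with siNeg. WT was the lowest, and the ratio was 2.22-fold (1.53 to 3.25) in the knockout, 1.98-fold (1.46 to 2.71) with siDyrk2 and 1.72-fold (1.15 to 2.58) for siNeg against WT. Of its 50-base words 13.6% are shared with Gm45338. Summed over both genes, fragments were 1.93-fold in the knockout comparison (1.35 to 2.78), 1.69-fold in the siRNA comparison (1.28 to 2.24) and also 1.93-fold for siNeg against WT (1.34 to 2.79). Lgals3bp, a secreted glycoprotein, was at 31.97 FPKM in Dyrk2-KO against 24.96 in WT, and at 45.41 with siDyrk2 against 37.46 with siNeg, and was thus higher in both siRNA libraries. Ifi27, a small interferon-induced protein, was at 46.34 FPKM in Dyrk2-KO against 40.40 in WT, and at 43.59 with siDyrk2 against 31.63 with siNeg. Ifi35 had log2 ratios of -0.03 and 0.12 in the knockout and siRNA comparisons, and Xaf1 had 0.44 and 0.30.

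The 12 genes not kept had highest values of 0.07 to 0.98 FPKM. They were Isg20, Oas1a, Oas2, Oas3, Oasl1, Mx1, Mx2, Rsad2, Ifi44, Slfn2, Zbp1 and Psmb9. Mx1, Oas3 and Slfn2 held 2 to 11 estimated fragments a library, and the counting intervals of their ratios all included 1. Oas2 was 2.15-fold higher in the knockout comparison (1.07 to 4.35), on 27 fragments against 14. For siNeg against WT it was 2.85-fold higher (1.47 to 5.71), and with siDyrk2 it was at 0.946-fold (0.557 to 1.56). Zbp1 was 6.5-fold higher with siDyrk2 (1.84 to 32.6), on 20 fragments against 3. In the other comparisons its intervals included 1. Rsad2 held 26 fragments in Dyrk2-KO against 12 in WT, and 9 with siDyrk2 against 29 with siNeg. It was 2.25-fold higher in the knockout comparison (1.15 to 5.16), 3.30-fold lower with siDyrk2 (1.6 to 8.32) and 2.75-fold higher for siNeg against WT (1.43 to 6.23). Mx1, Rsad2 and Oasl1, which infection induces strongly, were thus among the genes near 0 in these cultures.

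Another list held interferon-induced genes that are not members. Of 50 such genes 28 were measured, and 21 were higher in Dyrk2-KO (median 0.20), 20 with siDyrk2 (median 0.15) and 17 with siNeg against WT (median 0.08), beside 43.7%, 54.3% and 48.3% of all genes. In the knockout Ccl5, a chemokine (0.81), and Igtp, a GTPase of the interferon-gamma response (0.66), were the highest. Samhd1, which degrades nucleotides (-0.28), and Pml, the organiser of nuclear bodies (-0.23), were the lowest. With siDyrk2 these 4 genes were at -0.28, 0.28, -0.20 and -0.26 in the same order. Of the 28 measured genes, Ccl5, Cxcl10 and Ifi203 reached 1 FPKM in Dyrk2-KO alone, and Oas1b and Irgm1 with siDyrk2 alone. Whether these genes entered the counts depended on the library in which they were highest.

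**Figure D4:**
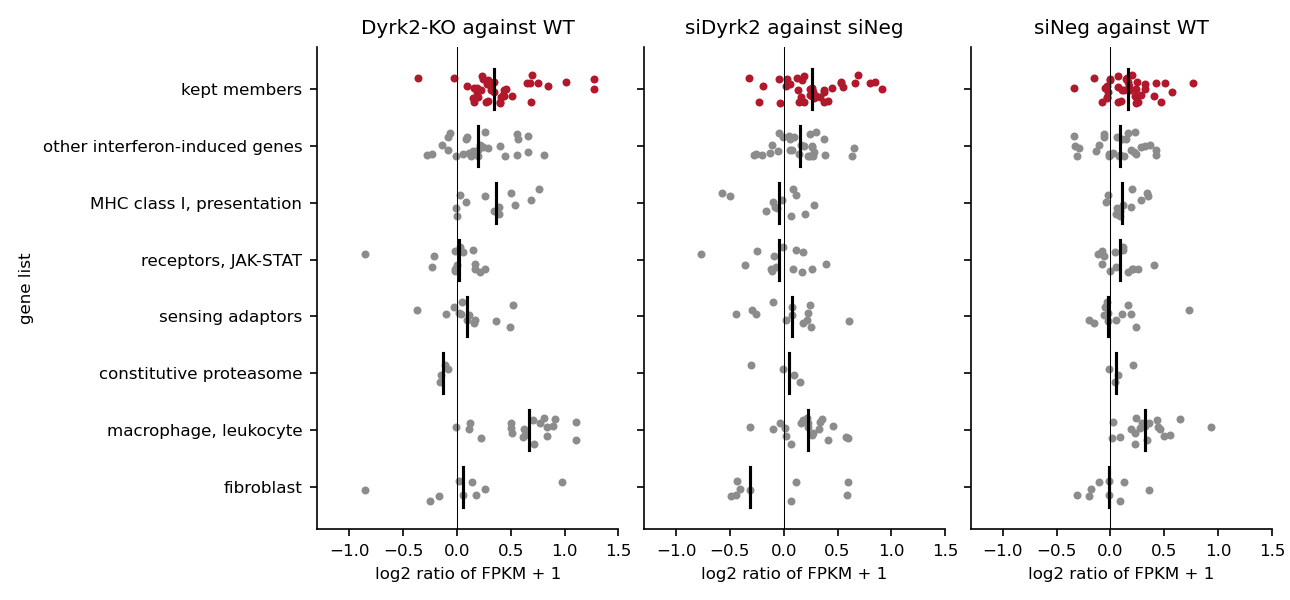
Log2 ratio of FPKM + 1 (horizontal axis) of each measured gene, 1 point per gene, in the 3 comparisons, for the 37 kept members (red) and 7 other gene lists (grey), with a black bar at each list's median; the vertical spread of points within a list carries no value. Kept members lie mostly right of 0 in all panels, receptor genes lie around 0 except Socs1 at -0.85 and -0.77 in the first 2 panels, and macrophage markers have medians of 0.67, 0.23 and 0.32.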

How the data were processed

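Libraries were stranded and polyA-selected, from DNase-treated RNA, per the labels. Among tools and builds, cutadapt (1.9.1), HISAT2 (2.0.1) and GRCm38 come from the submitters' processing notes. Which program counted fragments, and on which annotation, is not given in the sources used here. Deposited values are FPKM with 2 decimals and an exonic length per gene, per the file headers, and FPKM times length in kilobases sums to 1e+06, so the authors scaled by fragments assigned to genes.

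Of 55573 identifiers 55394 matched GENCODE M21 on GRCm38, and 179 had no symbol. Depth was estimated as the smallest number of fragments that made the values of genes of at most 200 bases whole within rounding, which held for 99.7 to 100% of 316 to 377 genes a library. Ratios are log2 of FPKM + 1, which understates differences of low genes; "fold" values with intervals are ratios of FPKM, with exact 95% conditional binomial intervals on estimated fragments. With 1 library a group no test was made, and genes were counted by size (1.5-fold and 2-fold on FPKM + 1). The members and lists were chosen with earlier results of these data known. Levels are given for kept members at least 1.5-fold different in any comparison and for the 6 most abundant. Other lists are given by their 2 highest and 2 lowest knockout ratios, with the 4 most abundant receptor and signalling genes. Usp18, Cmpk2, Rsad2, Oas2, Isg20, Psmb9, Parp14, Gbp3 and Gbp7 were named after their values were seen. So were Ifi35, Xaf1, Ifit2, Irf7, Irf1, H2-D1, Zbp1 and the macrophage genes. The scripts ran in Python 3.11.15 with scipy 1.17.1 and were tested on simulated data. Promoter sequences are RefSeq's; those of the Ifitm genes, also foreseen in the naming rule, were not printed.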

Additional observations from a re-analysis of the deposited data

Results flagged for a closer look

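Some genes were at least 1.5-fold different in 1 Dyrk2 comparison and on the other side of 0 in the other; with 1 library a group these differences were not tested. For Ifit3b the log2 ratio was 0.69 in Dyrk2-KO against WT and -0.23 in siDyrk2 against siNeg, which differ by 0.93. H2-K1, a class I heavy chain, was at 23.68 FPKM in Dyrk2-KO against 14.34 in WT and at 17.37 with siDyrk2 against 17.60 with siNeg, a difference of 0.70. Ccl5 was at 1.14 FPKM in Dyrk2-KO against 0.22 in WT and at 0.34 with siDyrk2 against 0.63 with siNeg, a difference of 1.09. Its knockout ratio had a counting interval of 1.96 to 17.6. The siRNA ratios had counting intervals of 0.613 to 1.05 for Ifit3b, 0.906 to 1.08 for H2-K1 and 0.181 to 1.5 for Ccl5. Each included 1, so the direction with siDyrk2 was not settled for these genes.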

How the results depend on the processing

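No paired analysis was possible because each group held 1 library. Medians of the kept genes kept their direction in every alternative, and 85 of 104 summary values stayed within the limits set. The share of all genes at least 1.5-fold higher varied with these settings too and stands in parentheses. For the 2-fold counts the share of all genes was not computed in the alternatives. In the knockout comparison, 16 members were at least 1.5-fold higher with a pseudocount of 0.1 (4.75%), 3 with a pseudocount of 5 (0.679%), 15 in TPM (4.14%) and 5 with a filter of 5 FPKM (2.03%). At least 2-fold were 7 with a pseudocount of 0.1 and 1 with 5. With the 5 FPKM filter 20 of 21 members were higher at all, against 42.6% of all genes. In the siRNA comparison, 1 was at least 1.5-fold higher with a pseudocount of 5 (0.866%) and 3 with the 5 FPKM filter (3.1%). With a pseudocount of 0.1, 3 were at least 2-fold higher. With the filter 19 of 21 were higher at all, against 55.0% of all genes. For siNeg against WT the 1.5-fold count was 4 with a pseudocount of 0.1 (3.21%), 0 with 5 (0.156%) and 4 in TPM (2.71%). With the filter 12 of 21 were higher, close to the share of all genes (51.4%). The median was then 0.07, against 0.01 for all genes. Alternatives chosen after seeing the data exchanged the controls. Against siNeg, Dyrk2-KO had 32 of 37 members higher (48.2% of all genes) with a median of 0.21, 4 at least 1.5-fold (5.25%) and 1 at least 2-fold. Isg15 (-0.09), Lgals3bp (-0.22) and Ifih1 (-0.04) were then lower in Dyrk2-KO, beside Ifi35 and Cmpk2, which were also lower against WT. Against WT, siDyrk2 had 34 of 37 higher (52.1% of all genes) with a median of 0.37, 10 at least 1.5-fold (3.26%) and 5 at least 2-fold. The cause of these shifts was not tested; fewer genes pass the stricter filter by construction.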
